A study of Mus musculus with 2 samples.

Results

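The 10 genes described here encode the main cytosolic and mitochondrial heat shock chaperones: Hspa1a, Hspa1b, Hspb1, Dnajb1, Hsp90aa1, Hsp90ab1, Hsph1, Hspa8, Hspd1 and Hspe1. They were selected by gene symbol among the 27998 genes of the count matrices, and each symbol matched 1 row. Single-cell RNA-Seq was performed on islet cells of 8-week-old male chow-fed mice of the C57BL/6N strain, in 1 library from WT mice and 1 from their ghrelin-knockout (GKO) littermates, homozygous for a germline deletion of the gene for the stomach hormone ghrelin. Each library came from the pooled pancreata of 4 mice. Islets were freed with collagenase, handpicked, dispersed with Accutase in a warm bath and sorted for viable cells, so the libraries hold only cells that survived these steps, and the genotype, the pool and the preparation cannot be told apart. With 1 library per genotype no test of a genotype difference was possible. Intervals are exact 95% Poisson or binomial intervals that cover counting error only.

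Heat shock proteins bind unfolded or aggregating proteins and hold or refold them. When unfolded protein accumulates in the cytosol, heat shock factor 1 is released from chaperones, trimerizes and binds heat shock elements, repeated GAA and TTC units, upstream of genes such as Hspa1a, whose transcripts rise within minutes. The same genes are known to be induced by enzymatic dissociation of tissue, together with immediate early genes such as Fos, Jun and Egr1, whereas the endoplasmic reticulum, where hormone precursors fold, has its own chaperones under other regulators.

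The genes lie apart in the genome except for 2 pairs (GENCODE annotation of build GRCm38). Hspa1a (chr17:34969190-34972156) and Hspa1b (chr17:34956436-34959238) are neighbours on the minus strand, each with a single exon, and Hspd1 (chr1:55077835-55088243, minus strand) and Hspe1 (chr1:55088132-55091307, plus strand) meet head to head. Hspb1 (chr5:135887919-135889563), Dnajb1 (chr8:83608193-83612653) and Hspa8 (chr9:40800984-40810087) are on plus strands. Hsp90aa1 (chr12:110690605-110702728), Hsp90ab1 (chr17:45567775-45573271) and Hsph1 (chr5:149614287-149636376) are on minus strands.

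The promoters that could be read are shown before the levels because the members differ in them. Sequences are from RefSeq (mouse build GRCm38.p6) and are given 5′ to 3′ on the strand of the gene, with heat shock elements in capitals. An element was defined as GAANNTTC or TTCNNGAA, searched on both strands in the 250 bases before a start site. Among 32851 such windows of all genes, 12.8% held at least 1 element of these 2 units and 0.466% held 3 units in a row (GAANNTTCNNGAA or TTCNNGAANNTTC). The 7 members with a window had 10 windows. In at least 1 window, 6 of them held an element. Hspd1 and Hspe1 held at least 3 units in a row, in a stretch that they share, and the other window of Hspd1 held no element. These counts are per gene, whereas the shares over all genes are per window. The windows of Hspa1a and Hspa1b, which encode almost the same protein and lie 9951 bases apart on the minus strand of chromosome 17, were the same at 247 of 250 bases (98.8%). Relative to Hspa1a, Hspa1b had the differences C44T, T47C and T249G, counted from 1 at the 5′ end of the window. Each held 1 element, from 104 to 97 bases before the start site and outside the annotated spans of all 10 members.
Hspa1a, chr17:34972157-34972406: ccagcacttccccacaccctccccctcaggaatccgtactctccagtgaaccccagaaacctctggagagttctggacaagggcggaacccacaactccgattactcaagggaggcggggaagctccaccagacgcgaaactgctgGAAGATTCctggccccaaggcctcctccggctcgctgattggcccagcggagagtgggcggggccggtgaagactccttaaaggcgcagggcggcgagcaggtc
Hspa1b, chr17:34959239-34959488: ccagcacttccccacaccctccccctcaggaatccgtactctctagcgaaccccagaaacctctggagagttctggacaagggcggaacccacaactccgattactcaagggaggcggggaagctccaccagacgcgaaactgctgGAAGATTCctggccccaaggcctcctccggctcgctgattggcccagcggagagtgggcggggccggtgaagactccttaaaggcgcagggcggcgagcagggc

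The other elements are shown with 6 bases on each side. Hspb1, the small heat shock protein, held 2 of them, Hsph1 held 1, and Hspd1 and Hspe1, which are transcribed in opposite directions and whose annotated spans overlap by 112 bases, shared an interval of 18 bases with 4 units in a row, read as 2 overlapping matches of 3 units. In the annotation the shared interval lay inside the Hspd1 gene, in an exon of another annotated transcript, 127 bases before 1 of its start sites and 72 bases before that of Hspe1.
Hspb1, chr5:135887796-135887835: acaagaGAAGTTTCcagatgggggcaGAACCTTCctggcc
Hsph1, chr5:149636356-149636375: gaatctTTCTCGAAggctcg
Hspd1, chr1:55088053-55088082: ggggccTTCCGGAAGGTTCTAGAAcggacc
Hspe1, chr1:55088053-55088082: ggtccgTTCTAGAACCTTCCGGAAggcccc
Dnajb1 had no match in either of its windows, and no window was used here for Hsp90aa1, Hsp90ab1 and Hspa8. A match describes these letters only, and the absence of a match says nothing about binding by the factor.

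Barcodes were required to hold at least 500 genes and at most 10% of UMIs from mitochondrial genes, which kept 7100 of 7792 WT and 6346 of 7289 GKO barcodes, with a median of 15412 and 11404 UMIs. The libraries shared 18 barcode sequences. Ghrl, the deleted gene, was counted at 276 CPM (UMIs per 1000000 of the library or class) in WT and 2.71 CPM in GKO. Barcodes were grouped by the hormone that made up at least 10% of their UMIs. This gave 2265 WT and 872 GKO insulin-led, 1048 and 1397 glucagon-led, 1414 and 1003 somatostatin-led, and 717 and 669 pancreatic polypeptide-led (Ppy-led) barcodes, and left 1656 and 2405 nonendocrine barcodes. Nonendocrine thus means below 10% for each of these hormones. Ghrelin had no class of its own, and Ghrl was the gene most raised in WT nonendocrine barcodes over all other WT barcodes. All further markers checked, such as Slc2a2 in insulin-led barcodes, were higher in their own class in both libraries. Nonendocrine barcodes were called endothelial-like, activated stellate- or fibroblast-like, quiescent stellate-, pericyte- or muscle-like, or macrophage-like from at least 3 detected markers, and these names are used without "-like" from here.

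The 10 members made up 0.793% of all UMIs in the WT library and 1.22% in the GKO library. Within classes the libraries were much closer, at 0.245% in WT and 0.246% in GKO insulin-led barcodes, 0.760% and 0.805% in glucagon-led, 0.810% and 0.706% in somatostatin-led, 1.75% and 1.79% in Ppy-led, and 2.66% and 2.99% in nonendocrine barcodes. Of all UMIs, insulin-led barcodes thus held the smallest share and Ppy-led barcodes the largest among the hormone-led classes in both libraries. Nonendocrine barcodes, of which GKO had more, stood above them on this scale. Hormone genes, however, filled 49.0% and 47.9% of UMIs in Ppy-led and 3.58% and 2.76% in nonendocrine barcodes. Over totals without them, the order of Ppy-led and nonendocrine barcodes depended on the member. Hspa1a was then 10.97-fold and 12.5-fold the insulin-led level in Ppy-led and 8.01-fold and 10.4-fold in nonendocrine barcodes. Hspd1 was at 2.16-fold and 2.22-fold in the former and at 2.74-fold in both libraries in the latter.

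**Figure D1:**
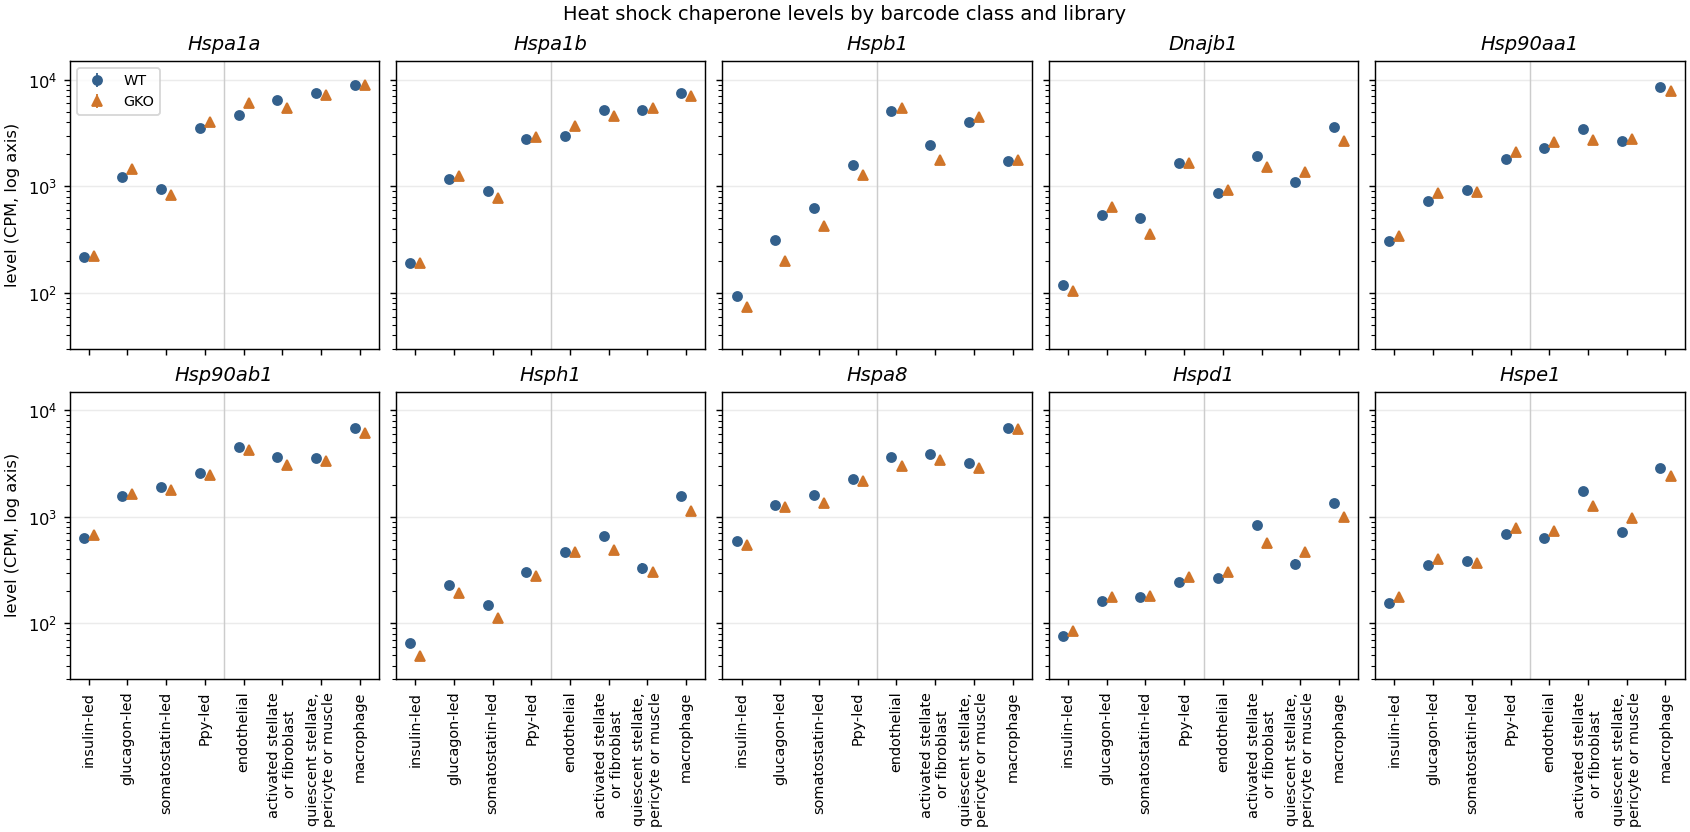
Level of each of the 10 chaperones (CPM, log axis) in 4 hormone-led and 4 nonendocrine barcode classes, with WT as circles and GKO as triangles. Bars are 95% Poisson intervals, mostly smaller than the symbols. In both libraries each gene was lowest in insulin-led barcodes, and 9 of the 10 were highest in macrophages, the exception being Hspb1, which was highest in endothelial barcodes.

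Hspa1a and Hspa1b encode the stress-inducible Hsp70, which folds client proteins in cycles of ATP hydrolysis. Hspa1a stood at 217 CPM in WT and 223 CPM in GKO insulin-led barcodes, at 1234 and 1455 CPM in glucagon-led, at 953 and 832 CPM in somatostatin-led, and at 3548 and 4011 CPM in Ppy-led barcodes. The Ppy-led level was 16.3-fold that of insulin-led barcodes in WT and 18.0-fold in GKO. Hspa1b followed the same order, with 192 and 189 CPM in insulin-led and 2814 and 2878 CPM in Ppy-led barcodes, a difference of 14.6-fold and 15.2-fold. Glucagon-led exceeded somatostatin-led barcodes for both genes in both libraries. The ratio of Hspa1a to Hspa1b UMIs stayed between 1.04 and 1.39 in the hormone-led classes and reached 1.58 in WT and 1.64 in GKO endothelial barcodes. No 90-base stretch in the last 500 transcript bases of either gene occurred in another gene, so their counts, taken from transcript ends, could be told apart.

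Dnajb1 encodes the Hsp40 partner that brings clients to Hsp70 and stimulates its ATPase, and Hsph1 encodes the Hsp110 that reloads Hsp70 with ATP. Dnajb1 was at 119 and 103 CPM in insulin-led barcodes of WT and GKO, at 539 and 643 CPM in glucagon-led, at 499 and 360 CPM in somatostatin-led, and at 1646 and 1652 CPM in Ppy-led barcodes. The Ppy-led level was 13.8-fold and 16.0-fold the insulin-led one. Hsph1 rose less steeply, from 65.3 and 49.7 CPM in insulin-led to 303 and 280 CPM in Ppy-led barcodes, or 4.63-fold and 5.63-fold. For both genes, as for Hspa1a, glucagon-led barcodes lay above somatostatin-led ones.

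Hspb1 encodes the small heat shock protein that holds unfolded proteins without using ATP and binds actin and intermediate filaments. It was at 93.7 and 73.4 CPM in insulin-led, 312 and 198 CPM in glucagon-led, 625 and 424 CPM in somatostatin-led, and 1576 and 1265 CPM in Ppy-led barcodes. Unlike Hspa1a, it was higher in somatostatin-led than in glucagon-led barcodes in both libraries. In nonendocrine classes it was highest in endothelial barcodes, at 5064 and 5469 CPM, and it was at 1746 and 1750 CPM in macrophages and at 739 and 928 CPM in acinar barcodes. The level in endothelial barcodes was 54.1-fold that of insulin-led barcodes in WT and 74.5-fold in GKO, and 18.8-fold and 27.2-fold over totals without hormone genes.

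Hspa8 encodes the constitutive Hsp70 of unstressed cells, and Hsp90aa1 and Hsp90ab1 encode the stress-responsive and the constitutive cytosolic Hsp90, which mature kinases and steroid receptors. Hspa8 was at 589 and 542 CPM in insulin-led and 2285 and 2187 CPM in Ppy-led barcodes, or 3.88-fold and 4.03-fold higher. Hsp90ab1 was at 638 and 670 CPM in insulin-led and 2600 and 2448 CPM in Ppy-led barcodes, 4.08-fold and 3.66-fold higher. Hsp90aa1 rose more, from 306 and 345 CPM to 1813 and 2080 CPM, a change of 5.92-fold and 6.02-fold. The ratio of Hsp90aa1 to Hsp90ab1 UMIs accordingly moved from 0.480 and 0.516 in insulin-led, 0.470 and 0.528 in glucagon-led and 0.485 and 0.495 in somatostatin-led barcodes to 0.698 and 0.8496 in Ppy-led barcodes, and to 1.26 and 1.28 in macrophages. Ratios of Hspa1a plus Hspa1b to Hspa8 UMIs went from 0.695 and 0.758 in insulin-led to 2.78 and 3.15 in Ppy-led barcodes. Of the 90-base stretches in the last 500 bases of Hspa8, 79.8% also occurred in 8 other annotated genes, so its level is uncertain where reads could be split among them.

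Hspd1 and Hspe1 encode Hsp60 and Hsp10, the barrel and the lid of the mitochondrial chaperonin. Hspd1 was at 76.5 and 85.7 CPM in insulin-led, 162 and 177 CPM in glucagon-led, 177 and 179 CPM in somatostatin-led, and 246 and 272 CPM in Ppy-led barcodes. Hspe1 ran from 154 and 179 CPM in insulin-led to 688 and 778 CPM in Ppy-led barcodes. The differences between Ppy-led and insulin-led barcodes, at 3.22-fold and 3.18-fold for Hspd1 and 4.47-fold and 4.36-fold for Hspe1, were smaller than those of the inducible cytosolic members. Hspd1 per Hspe1 UMI was 0.496 and 0.480 in insulin-led and 0.358 and 0.350 in Ppy-led barcodes. Hspe1 is uncertain in part, since 36.0% of the 90-base stretches near its end also occurred in 1 other annotated gene, and so did 7.06% of those of Hspb1.

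All 10 members were at least 2-fold higher than in insulin-led barcodes in both libraries in glucagon-led, somatostatin-led, Ppy-led and nonendocrine barcodes. Of all genes with at least 200 UMIs per library, 31.8%, 47.8%, 11.7% and 53.0% passed the same limits. In glucagon-led and somatostatin-led barcodes the members therefore stood among a large share of all genes, with median log2 differences of 1.51 and 1.38 (WT and GKO) against 0.88 and 0.85 over all genes in glucagon-led, and of 1.57 and 1.39 against 1.08 and 1.02 in somatostatin-led barcodes. In Ppy-led barcodes the median was 2.39 and 2.54 against 0.46 and 0.43. Hormone genes filled 65.7% and 63.7% of the UMIs of insulin-led barcodes and 30.6% in both libraries of glucagon-led barcodes, which lowers the CPM of every other gene in the former. Over totals that leave out these hormone genes, the count fell to 3 in glucagon-led barcodes (Hspa1a, Hspa1b and Dnajb1) and to 2 in somatostatin-led ones (Hspa1b and Hspb1), and stayed at 10 in Ppy-led and nonendocrine barcodes. Of all genes tested, 3.59%, 5.22%, 3.95% and 19.0% passed on that scale in these 4 classes. On that scale Hspd1 was 1.04-fold and 1.08-fold the insulin-led level in glucagon-led barcodes, while Hspa1a was 10.97-fold and 12.5-fold in Ppy-led barcodes.

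Free RNA adds to these levels. No class is known to lack the members, so hormone transcripts in the classes of other hormones served as the reference. After each barcode was thinned to 2000 UMIs, Hspa1a was detected in 24.6% (interval 22.8% to 26.4%) of WT and 21.7% (19.0% to 24.6%) of GKO insulin-led barcodes, from 78.4% and 79.4% before thinning at medians of 37124 and 35811 UMIs. Sst, which these barcodes should lack, was detected in 48.4% and 37.8% of them. Some or all of the Hspa1a share there may thus be free RNA. Sst stood at 185265 and 185496 CPM in its own class, far above Hspa1a in any class. How much of the share is free RNA therefore cannot be told from this reference. In somatostatin-led barcodes Hspa1a was detected in 55.1% and 48.1% (81.0% and 77.0% before thinning at medians of 11065 and 10148 UMIs), below Gcg at 59.0% and 70.4%. Gcg was likewise abundant in its own class, at 250378 and 259861 CPM, so the same limit holds. In glucagon-led barcodes the share of Hspa1a was 69.8% and 75.1%, above Sst at 52.5% and 42.3% but below Ppy at 92.0% and 88.1%, so the reading depends on the reference. In Ppy-led barcodes it was 93.4% and 91.6%, above Sst at 51.0% and 44.8% and Gcg at 67.6% and 75.04%. Ins2 was detected in at least 99.1% of the barcodes of each hormone-led class in both libraries, more often than Hspa1a, and was not used as the reference.

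Other chaperone genes were followed in a list of 44 partners and heat shock factors, of which 43 were in the matrices. In both libraries 20 of 43 measured were at least 2-fold above insulin-led barcodes in glucagon-led and 28 of 42 in somatostatin-led barcodes. So were 16 of 43 in Ppy-led and 35 of 43 in nonendocrine barcodes. Of all genes, 31.8%, 47.8%, 11.7% and 53.0% passed the same limits in that order, so these counts are read against that shift. The median log2 difference of the partners was 1.01 and 1.03 (WT and GKO) in glucagon-led barcodes, against 0.88 and 0.85 over all genes. In Ppy-led barcodes it was 0.80 and 0.81, against 0.46 and 0.43. Hspb8, a small heat shock protein that works with the cochaperone Bag3, was at 102 and 126 CPM in Ppy-led barcodes and at no more than 10.8 CPM in the other hormone-led classes. Outside these classes Hspb8 was at 69.6 and 107 CPM in activated stellate or fibroblast barcodes. It was at 85.8 and 89.8 CPM in quiescent stellate, pericyte or muscle and at 8.56 and 22.5 CPM in endothelial barcodes. Bag3 itself was at 8.83 and 10.4 CPM in insulin-led, 96.9 and 105 CPM in Ppy-led and 801 and 560 CPM in macrophage barcodes. Hsf1, the factor that induces these genes, was low in all hormone-led classes, between 5.74 and 13.3 CPM. On this scale it was lower in Ppy-led (8.40 and 8.42 CPM) than in glucagon-led barcodes (13.3 and 12.3 CPM). Hormone genes filled 49.0% and 47.9% of UMIs in Ppy-led barcodes and 30.6% in both libraries of glucagon-led ones. That lowers the CPM of other genes more in Ppy-led barcodes, and whether the order of Hsf1 holds outside hormone genes was not tested. Of 16 endoplasmic reticulum folding genes, 0 were at least 2-fold above insulin-led barcodes in glucagon-led, 1 in somatostatin-led, 1 in Ppy-led and 2 in nonendocrine barcodes. In the same order 1, 1, 3 and 2 were at least 2-fold lower, as were 2.29%, 1.74%, 3.37% and 3.93% of all genes. Their median log2 differences were -0.29 and -0.60 (WT and GKO), 0.14 and -0.093, -0.38 and -0.60, and 0.082 and -0.15. These lay below the medians over all genes in each class. Of 14 immediate early genes, 13, 10, 14 and 13 were at least 2-fold above insulin-led barcodes. The counts and medians of these lists and the levels of the genes named from them are on the CPM scale. They were not repeated over totals without hormone genes.

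Within insulin-led barcodes the members varied with the share of insulin transcripts. Hspa1a stood at 685 CPM in WT barcodes with 10% to 25% insulin UMIs, 746 CPM at 25% to 40%, 345 CPM at 40% to 60% and 78.7 CPM above 60%. In GKO the same bins gave 972, 613, 329 and 61.2 CPM. The range was also present outside the hormone genes, where Hspa1a, as CPM of the UMIs from all other genes, was 1459 at 25% to 40% and 276 above 60% in WT, and 1160 and 206 in GKO. Hspb1 covered a wider range on that scale, from 948 to 62.9 in WT and from 461 to 44.9 in GKO over these bins, and Dnajb1 went from 846 to 163 and from 568 to 102. Hspd1 varied less, at 257 and 209 in WT and 233 and 211 in GKO, with 215 and 321 in the bin of 10% to 25%. The median mitochondrial share moved with these bins, from 3.60% to 2.52% in WT and from 3.95% to 2.74% in GKO, and its part in the result was not tested. In WT the bins of 10% to 25% and 25% to 40% held 53 and 184 of 2265 insulin-led barcodes. No doublet caller was run, and the part of mixed barcodes in the bins with less insulin was not tested either.

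**Figure D2:**
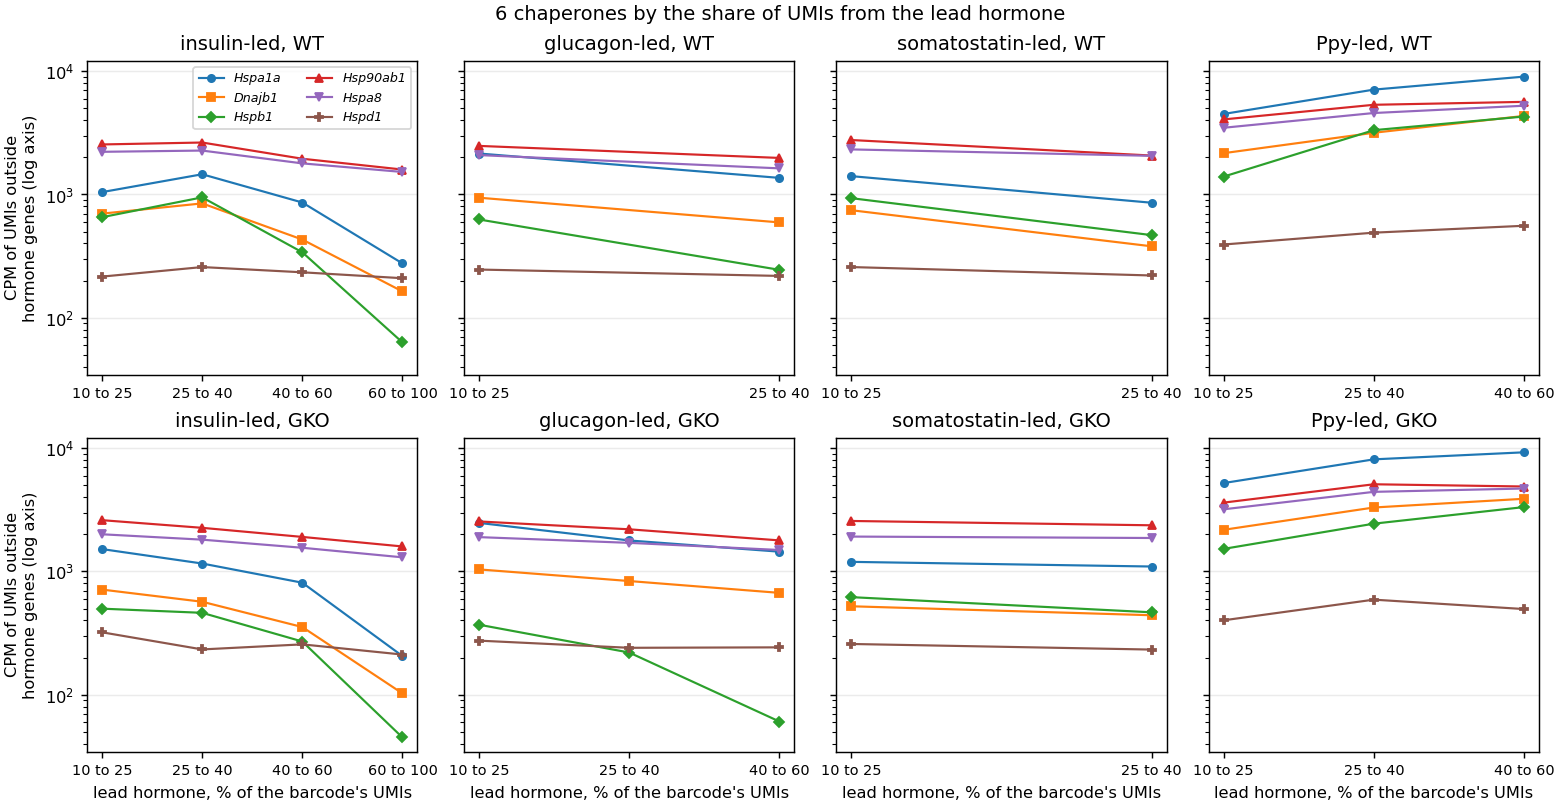
Level of 6 chaperones as CPM of UMIs outside hormone genes (log axis) by the share of UMIs from the lead hormone, in 4 hormone-led classes, with WT in the upper and GKO in the lower row. In insulin-led barcodes Hspb1, Dnajb1 and Hspa1a had the steepest falls toward the bin above 60%, whereas Hspd1 varied less, between 209 and 257 in WT and between 211 and 321 in GKO, and in Ppy-led barcodes the lines rose from bin to bin except those of Hspd1 and Hsp90ab1 in GKO, which were lower in the last bin than in the one before.

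In glucagon-led barcodes with 10% to 25% against 25% to 40% of UMIs from Gcg, Hspa1a was at 2151 and 1364 CPM of UMIs outside hormone genes in WT and at 2478 and 1785 in GKO. Hspb1 differed more, at 627 and 244 in WT and 370 and 220 in GKO. The order was the opposite in Ppy-led barcodes. There Hspa1a was at 4505, 7100 and 9053 in WT and at 5219, 8129 and 9272 in GKO with 10% to 25%, 25% to 40% and 40% to 60% of UMIs from Ppy, and Hspb1 was at 1397, 3327 and 4295 in WT and at 1524, 2443 and 3331 in GKO. The Ppy-led bins held 165, 326 and 226 WT and 134, 350 and 185 GKO barcodes.

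The inducible members were unevenly spread over barcodes of a class. In insulin-led barcodes thinned to 2000 UMIs, the 10% of barcodes with the most Hspa1a UMIs held 68.4% of them in WT and 73.5% in GKO, and in somatostatin-led barcodes 50.8% and 54.8%. In Ppy-led barcodes they held 24.0% and 24.5%. Such a share is larger for rarer transcripts by counting alone. Hspa1a per 10000 UMIs had a median of 0.595 and 0.557 and a 90th percentile of 5.68 and 4.43 in insulin-led barcodes, against a median of 33.9 and 38.9 and a 90th percentile of 65.3 and 75.3 in Ppy-led ones.

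To see which members went together, barcodes of each class were thinned to 5000 UMIs and the 10% with the most Hspa1a plus Hspa1b UMIs were compared with the rest, which leaves the other 8 members to be read. In WT insulin-led barcodes Hspb1 was at 432.7 CPM in the 226 top barcodes and 41.9 CPM in the rest (log2 ratio 3.37, interval 3.18 to 3.56), and in GKO at 436 and 30.9 CPM (3.82, 3.48 to 4.16). Dnajb1 was at 550 and 67.3 CPM in WT (3.03, 2.87 to 3.19) and at 479.5 and 45.0 CPM in GKO (3.42, 3.12 to 3.71). The remaining 6 members had log2 ratios of 1.03 to 1.48 in WT and 0.82 to 1.87 in GKO, with Hspd1 the lowest in both, against medians of 0.33 and 0.31 over all genes tested. In these top barcodes the lead hormone made up a median of 42.2% and 41.5% of UMIs, against 62.9% and 61.4% in the rest, and 39 of 226 WT and 12 of 88 GKO top barcodes carried 10% of a further hormone, against 22 and 10 of the rest. With such barcodes left out, an alternative chosen after seeing the data, the median log2 ratio of the 8 members was 1.17 and 1.41, against 1.27 and 1.40 with them.

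**Figure D3:**
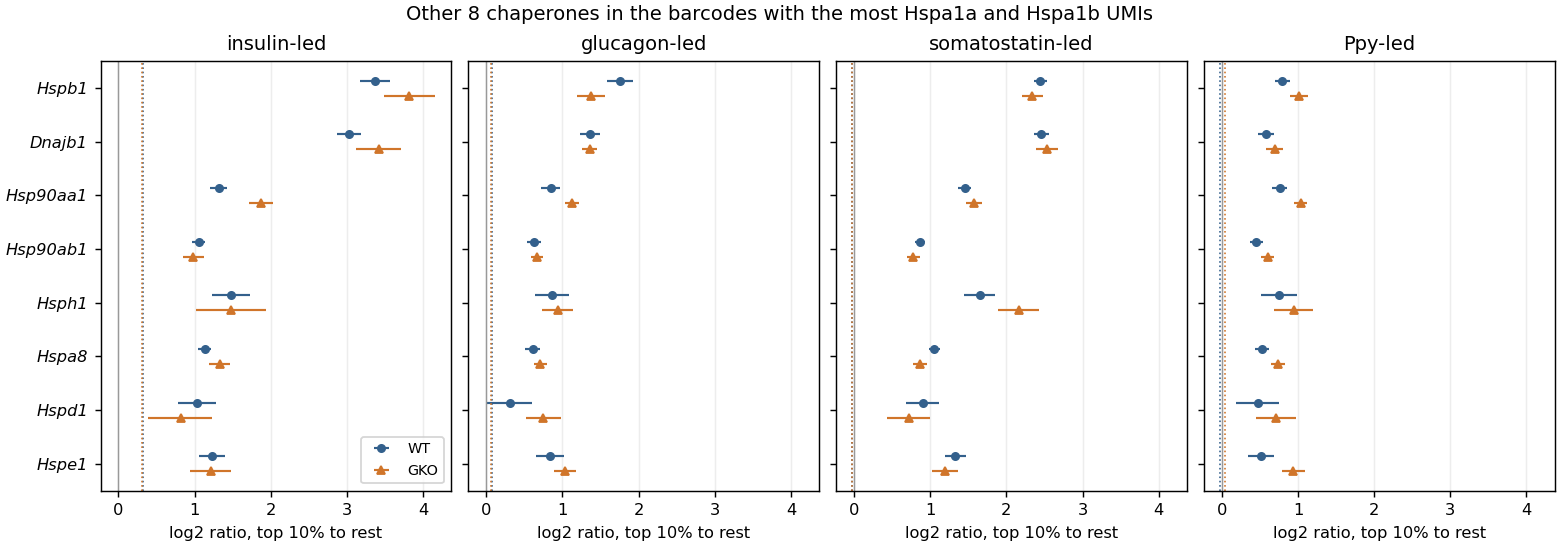
Log2 ratio of the level of the other 8 chaperones in the 10% of barcodes with the most Hspa1a and Hspa1b UMIs to the rest, by hormone-led class, after thinning to 5000 UMIs (WT circles, GKO triangles, bars 95% intervals, dotted lines the median over all genes). Hspb1 and Dnajb1 had the highest ratios in insulin-led, glucagon-led and somatostatin-led barcodes of both libraries, up to 3.82, and in Ppy-led barcodes no ratio was above 1.03.

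In somatostatin-led barcodes the ratios of Hspb1 (2.45 in WT and 2.34 in GKO) and Dnajb1 (2.46 and 2.53) were again the highest, followed by Hsph1 (1.65 and 2.16) and Hsp90aa1 (1.45 and 1.57). The constitutive Hsp90ab1, at 0.87 and 0.78, and Hspd1, at 0.90 and 0.72, were the lowest. In Ppy-led barcodes the 8 members ranged only from 0.45 to 0.80 in WT and from 0.60 to 1.03 in GKO. In glucagon-led barcodes Hspb1 was at 1.76 and 1.38, Dnajb1 at 1.36 in both libraries, and Hspd1 at 0.31 (0.0089 to 0.60) and 0.75. Immediate early genes that could be tested in these classes were higher in the top barcodes without exception, with medians from 0.65 to 2.61, and the medians of endoplasmic reticulum folding genes lay between -0.13 and 0.021.

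**Figure D4:**
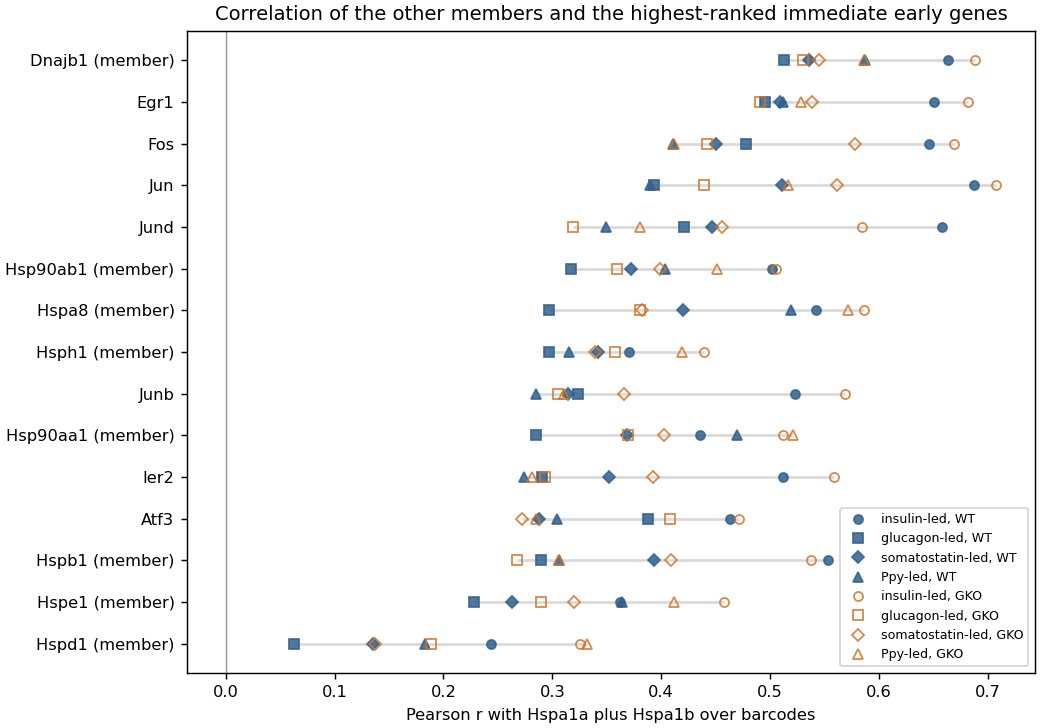
Pearson correlation over barcodes of each gene with the sum of Hspa1a and Hspa1b (log of 1 plus UMIs per 10000), for the other 8 chaperones and the immediate early genes among the most alike genes, in 8 sets, which are 4 hormone-led classes in 2 libraries. Filled symbols are WT and open symbols GKO. Dnajb1 had the highest lowest value over the sets, at 0.51, and Hspd1 the lowest, at 0.063.

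Over the barcodes of each of the 4 hormone-led classes in both libraries (669 to 2265 barcodes per set), 5079 genes were ranked by their lowest correlation with Hspa1a plus Hspa1b. Dnajb1 ranked 1, with r from 0.51 to 0.69. Hsp90ab1 ranked 8 (lowest r 0.32), Hspa8 9 (0.30), Hsph1 10 (0.30), Hsp90aa1 13 (0.28), Hspb1 18 (0.27), Hspe1 23 (0.23) and Hspd1 64 (0.063). The most alike genes outside the members included Egr1 (lowest r 0.49), Fos (0.41), Jun (0.39), Dnaja1 (0.33), Jund (0.32), Ubb (0.30), Junb (0.28), Ier2 (0.27) and Atf3 (0.27). Ubb encodes polyubiquitin, Dnaja1 a further Hsp40, and the others immediate early transcription factors or their relatives. All 11 immediate early genes measured were among the 50 highest-ranked genes, as were 7 of 36 partners and 0 of 16 endoplasmic reticulum folding genes. Barcodes of a set share a library and its free RNA, and the median r over all genes was 0.096 and 0.10 in insulin-led sets and -0.016 to 0.015 in the other sets, so these values are descriptions only.

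On the CPM scale, the members differed less between genotypes in the hormone-led classes than those classes differed from insulin-led barcodes. Over totals without hormone genes this did not hold for each member. Hspd1 in glucagon-led barcodes was then 1.04-fold and 1.08-fold the insulin-led level, against a CPM ratio of 1.10-fold between genotypes there. In insulin-led barcodes 0 of 10 members were 1.5-fold higher or lower in GKO, as were 1.54% and 1.27% of all genes. The median log2 ratio of GKO to WT over the members was 0.0050, against 0.086 over all genes, and -0.084 with TMM scaling. The ratios were lowest for Hsph1 (-0.39, interval -0.47 to -0.32) and Hspb1 (-0.35, -0.42 to -0.29) and highest for Hspe1 (0.21, 0.17 to 0.26). Hspa1a and Hspa1b, at 0.036 and -0.026, had intervals that included 0.

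In glucagon-led barcodes, 0 members were 1.5-fold higher in GKO (0.806% of all genes) and 1 was lower (1.3% of all genes). That gene was Hspb1, at 312 CPM in WT and 198 CPM in GKO (log2 ratio -0.65, interval -0.72 to -0.59). The size of this ratio depended on which barcodes were counted, as it was -0.39 without the 5% of barcodes with the most UMIs and -0.21 in barcodes with at least 25% of UMIs from Gcg. Hsph1 was also lower, at -0.27 (-0.33 to -0.20), and Dnajb1, Hspa1a and Hsp90aa1 were higher, at 0.25, 0.24 and 0.24. The median was 0.10, against 0.050 over all genes.

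In somatostatin-led barcodes, 0 members passed 1.5-fold in either direction (0.712% of all genes higher and 1.18% lower). Ratios of 9 of the 10 lay below 0, with a median of -0.22 against 0.033 over all genes, of which 58.6% lay above 0. The largest were those of Hspb1, at 625 and 424 CPM (-0.56, -0.61 to -0.51), Dnajb1, at 499 and 360 CPM (-0.47, -0.53 to -0.42), and Hsph1, at 150.3 and 113 CPM (-0.41, -0.51 to -0.32). Hspd1, at 177 and 179 CPM, was the exception (0.015, -0.068 to 0.098). Immediate early genes moved alongside, with 11 of 14 below 0 and a median of -0.21, and their part in the result was not tested. With at least 25% of UMIs required from Sst, a limit that only 104 WT and 90 GKO barcodes between 25% and 40% met, the median of the members was 0.16.

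In Ppy-led barcodes, 0 members passed 1.5-fold (0.941% of all genes higher and 0.796% lower), and the median was 0.019 against 0.057 over all genes, and -0.037 with TMM scaling. Hspb1 was again the lowest, at 1576 and 1265 CPM (-0.32, -0.34 to -0.29), and Hsp90aa1 (0.20), Hspe1 (0.18) and Hspa1a (0.18) were the highest. Hspb1 and Hsph1 had ratios below 0 in each of the 4 hormone-led classes, with intervals that did not include 0, and Hspa8 did too, from -0.063 to -0.26. No member had ratios above 0 with such intervals in all 4.

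**Figure D5:**
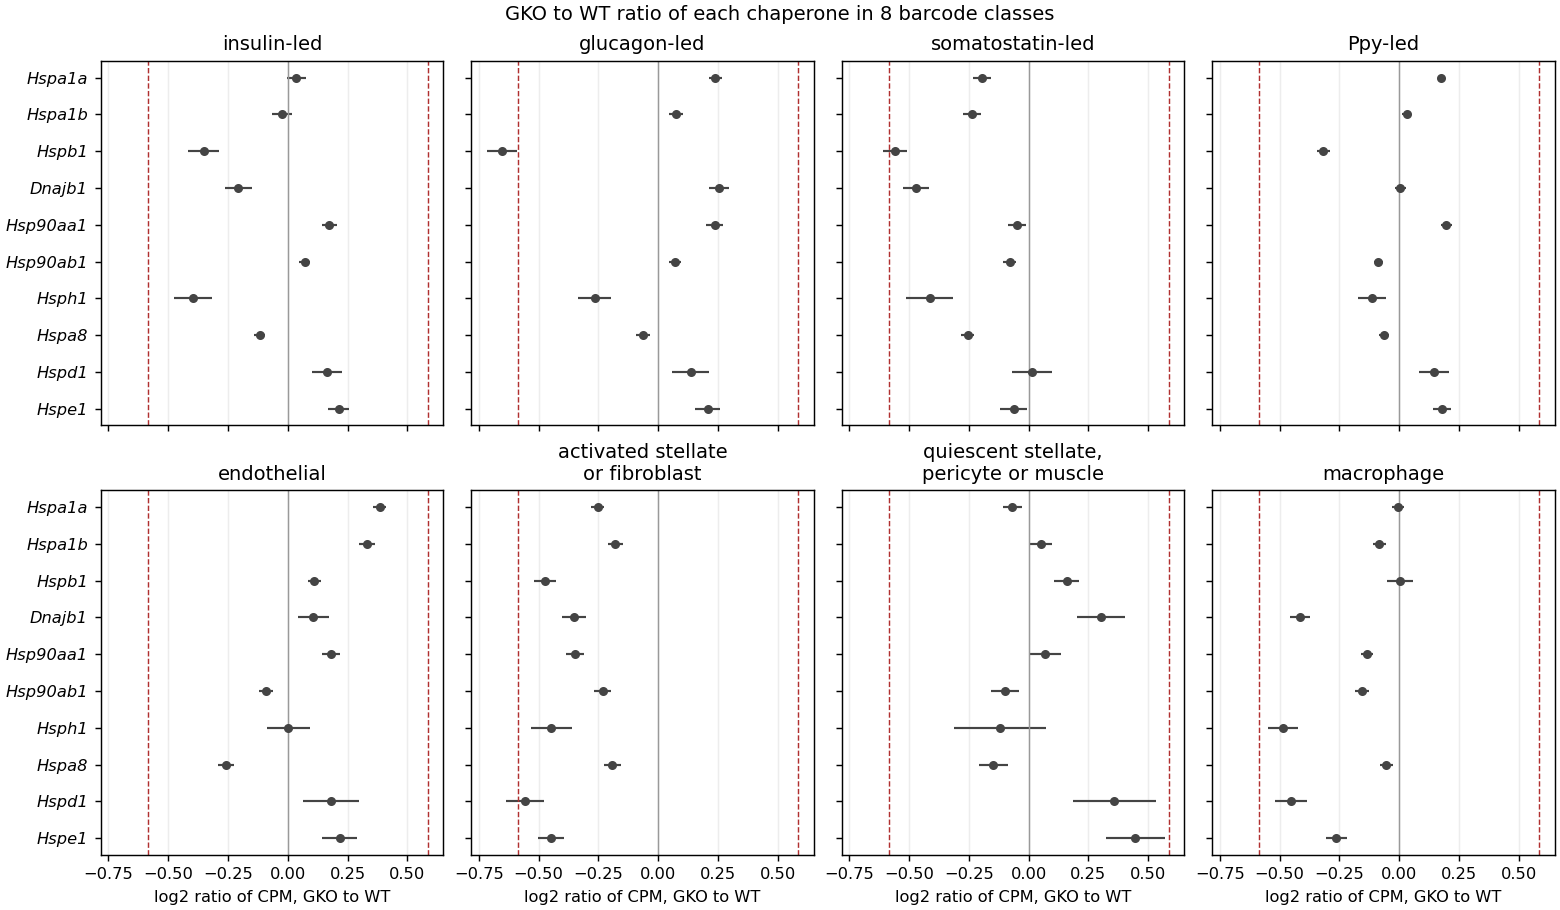
Log2 ratio of the level in GKO to that in WT for each chaperone in 4 hormone-led and 4 nonendocrine classes (points, with bars for 95% Poisson intervals), with dashed lines at 1.5-fold. Hspb1 in glucagon-led barcodes was the only point past a dashed line, and all 10 points lay below 0 in activated stellate or fibroblast barcodes, where 63.8% of all genes lay above 0.

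Among the partners, Fkbp5, an Hsp90 cochaperone of the glucocorticoid receptor and itself a glucocorticoid target, was lower in GKO in all 4 hormone-led classes, at 28.0 and 14.5 CPM in insulin-led (log2 ratio -0.95), 95.3 and 54.6 CPM in glucagon-led (-0.80), 55.1 and 31.9 CPM in somatostatin-led (-0.79) and 48.8 and 29.2 CPM in Ppy-led barcodes (-0.74). Fkbp5 was not lower in these classes alone. The ratio was -1.12 in all nonendocrine, -1.14 in endothelial and -1.24 in macrophage barcodes. In activated stellate or fibroblast barcodes Fkbp5 was nearly level, at 47.8 and 45.8 CPM. Hspb8 was the other partner past 1.5-fold in a hormone-led class, at 10.6 and 4.64 CPM in somatostatin-led barcodes (-1.19, interval -1.67 to -0.73, from 177 and 51 UMIs). No partner was 1.5-fold higher in GKO in the hormone-led classes, of 43 measured in insulin-led and 42 in each of the others. Of all genes in these classes, 1.54%, 0.806%, 0.712% and 0.941% were 1.5-fold higher and 1.27%, 1.3%, 1.18% and 0.796% lower. The medians of the partners were 0.064, 0.050, -0.0042 and 0.049, against 0.086, 0.050, 0.033 and 0.057 over all genes. Endoplasmic reticulum folding genes had 0 of 16 past 1.5-fold in each hormone-led class. In insulin-led barcodes 14 of 16 lay above 0 with a median of 0.29, where 70.5% of all genes lay above 0 with a median of 0.086.

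In all nonendocrine barcodes, 0 members passed 1.5-fold (7.22% of all genes higher and 4.26% lower), and Hspa1a, at 4898 and 6241 CPM (0.35), and Hspa1b, at 3751 and 4814 CPM (0.36), were the highest. The mix of cell types differed between the libraries, with 573 endothelial barcodes in WT and 444 in GKO, 256 and 591 activated stellate or fibroblast, 185 and 402 quiescent stellate, pericyte or muscle, and 190 and 444 macrophage barcodes, so each was taken apart. In endothelial barcodes 0 members passed 1.5-fold (1.85% and 1.51% of all genes), and Hspa1a, at 4673 and 6097 CPM (0.38, 0.36 to 0.41), and Hspa1b (0.33) were the highest, whereas Hspa8 was lower (-0.26, -0.29 to -0.22). In activated stellate or fibroblast barcodes 0 passed (5.28% and 3.21%), but all 10 ratios lay below 0, from -0.18 for Hspa1b to -0.56 for Hspd1, at 838 and 570.1 CPM, and the median was -0.35 against 0.094 over all genes. Of all genes tested there, 63.8% lay above 0. Immediate early genes had 11 of 13 below 0 there, with a median of -0.25, and their part in the result was not tested.

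In quiescent stellate, pericyte or muscle barcodes 0 members passed 1.5-fold (4.02% and 1.99%), and the chaperonin pair Hspe1 (0.44, 0.32 to 0.57) and Hspd1 (0.36, 0.18 to 0.53) had the highest ratios. In macrophages 0 passed (5.36% and 3.34%), and 9 of 10 ratios lay below 0, with a median of -0.15 against 0.089 over all genes. Of all genes tested there, 61.7% lay above 0. Hsph1 went from 1583 CPM in WT to 1132 CPM in GKO (-0.48, -0.55 to -0.42), Hspd1 from 1361 to 994 CPM (-0.45) and Dnajb1 from 3586 to 2693 CPM (-0.41), while Hspa1a was level at 8920 and 8899 CPM. In acinar barcodes 9 of 10 members were 1.5-fold higher in GKO, the exception being Hspb1 (0.33), but so were 29.1% of all genes tested, and 0 members were lower (4.95%). The acinar class held 86 and 95 barcodes, of which 36 and 52 had only 3 markers or led the next list by 1. Each acinar marker was lower in GKO than in WT acinar barcodes. Ctrb1 was at 57238 CPM in WT and 18198 CPM in GKO, Cpa1 at 14236 and 3011 CPM, and Cel at 4742 and 718 CPM. The part of this difference in the result was not tested. The median over all genes was itself 0.43 there, against 0.99 over the members, so the 9 calls are read against that shift. With equal weight per barcode, thinning or TMM factors 4 members passed, and the median over all 10 was 0.42, 0.32 and 0.56. Of 12 immediate early genes measured in acinar barcodes, 9 were 1.5-fold higher and 0 lower in GKO, with a median of 0.87, and their part in the result was not tested.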

How the data were processed

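Single-cell libraries were prepared by the authors with the 10x Genomics 3′ kit and counted with Cell Ranger on build mm10, per the labels. The deposited matrices hold raw UMI counts per gene and barcode, before the removal of ambient RNA and doublets that the authors applied downstream. Here barcodes below 500 detected genes, or above 10% of UMIs from mitochondrial transcripts, were discarded, UMIs were summed per class and library and scaled to CPM, and ratios were given exact Poisson intervals (Python 3.11.15, scipy 1.17.1). No doublet caller was run. Leaving out the 5% deepest barcodes of each class was an alternative, as was TMM scaling (edgeR 4.0.16). Cells are not replicates, so no test was run, and background shares cover genes with at least 200 UMIs over both libraries (in each library for class comparisons). The interval code was tested on simulated data. The named genes were all members, the 10 genes most alike to Hspa1a plus Hspa1b, and partners past 1.5-fold, of which some are not reported here. Members, lists and limits were chosen with earlier results of these data known. B cell, neutrophil and glial barcodes were too few to compare, and ductal barcodes of GKO were led by more markers of another list than of their own.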

Additional observations from a re-analysis of the deposited data

Results flagged for a closer look

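For 6 members the log2 ratio of GKO to WT lay below 0 in a hormone-led class and above 0 in another, each with an interval that did not include 0. The ratios differed by 0.72 for Dnajb1, 0.43 for Hspa1a, 0.31 for Hspa1b and 0.29 for Hsp90aa1 between glucagon-led barcodes, where GKO was higher, and somatostatin-led barcodes, where it was lower. For Hspe1 the difference was 0.28 between insulin-led and somatostatin-led barcodes, and for Hsp90ab1 it was 0.16 between insulin-led and Ppy-led barcodes. The insulin-led ratio of Hsp90ab1 was 0.071, below the median of 0.086 over all genes. TMM factors shift ratios there by -0.089, so its sign depended on the scaling. The sign of the somatostatin-led median over the members depended on the hormone limit. With 1 library per genotype these differences were not tested.

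Barcodes that failed the filters were used only in an alternative that took in all barcodes, and they also held the members. Above the limit of 10% for mitochondrial UMIs were 336 WT and 449 GKO barcodes with at least 500 genes, where the 10 genes together made up 8147 and 8604 CPM. They made up 1393 CPM in the 356 WT and 2217 CPM in the 494 GKO barcodes with fewer than 500 genes. The limits that 3 UMIs allow were 1.33, 1.05, 4.41 and 4.15 CPM in the same order.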

How the results depend on the processing

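No paired analysis was possible because each genotype had 1 library, and for the same reason no replicate could be left out. Hspb1 in glucagon-led barcodes, the only member called in the hormone-led and nonendocrine classes, kept its sign under the alternatives. The acinar calls were not followed member by member. Of 50 member ratios in the hormone-led and nonendocrine classes, 12 changed sign with the hormone limit of 25%, 6 with TMM and 0 to 4 with each other alternative. Those that moved were 26 with the 25% limit, 26 with TMM and 30 when thinned. Equal weight per barcode moved 23, leaving out the deepest barcodes 22, and the total without hormone genes 17. Each other alternative moved 0 to 3. Among counts and medians 47 values moved and 223 stayed the same, and the cause was not tested. With the lower limit of 0.32 on the log2 scale between genotypes the count of members past it was 2 in insulin-led, 3 in somatostatin-led, 2 in nonendocrine, 2 in endothelial, 6 in activated stellate or fibroblast, 2 in quiescent stellate, pericyte or muscle, and 3 in macrophage barcodes, where 12.2%, 10.1%, 27.0%, 15.2%, 28.2%, 21.8% and 28.8% of all genes passed it. The call of Hspb1 in glucagon-led barcodes was lost (0 members) with a hormone limit of 25%, equal weight per barcode, thinning to 2000 UMIs and without the 5% deepest barcodes, where 4.24%, 2.21%, 10.9% and 2.26% of all genes passed. In somatostatin-led barcodes 1 member passed under equal weight, thinning, TMM and without the deepest barcodes (all genes 2.08%, 8.89%, 2.04% and 2.11%). In activated stellate or fibroblast barcodes 1 passed with the total without ribosomal protein and mitochondrial genes and with TMM (all genes 8.15% and 8.05%), and in acinar barcodes 4 passed under equal weight, thinning and TMM (all genes 21.2%, 25.3% and 17.2%). The median log2 ratio in insulin-led barcodes was -0.12 with the 25% limit and when thinned, 0.055 without barcodes of 2 or more hormones, -0.076 without hormone genes in the total, -0.051 with equal weight, 0.053 without the deepest barcodes and -0.084 with TMM. It was 0.18 (25% limit) and 0.17 (thinned) in glucagon-led, 0.16 (25% limit), -0.30 (equal weight) and -0.29 (without the deepest) in somatostatin-led, and -0.011 (without hormone genes) and -0.037 (TMM) in Ppy-led barcodes. In activated stellate or fibroblast barcodes it was -0.40 without ribosomal protein and mitochondrial genes, -0.25 with equal weight and when thinned, -0.28 without the deepest and -0.44 with TMM. It was -0.24 with TMM in macrophages, and 0.42 (equal weight), 0.32 (thinned), 0.67 (without the deepest) and 0.56 (TMM) in acinar barcodes. Against insulin-led barcodes, the count of members past 2-fold was 6 with the 25% limit and 3 without hormone genes in glucagon-led, and 2 without hormone genes in somatostatin-led barcodes (all genes 24.5%, 3.59% and 5.22%). The sign of the Ppy-led median thus depended on the scaling, and that of the somatostatin-led median on the hormone limit. For the insulin-led median it depended on the scaling, the hormone limit, thinning and the weight of barcodes. Depth limits Hspb1, Dnajb1, Hsph1 and Hspd1 in insulin-led barcodes, where at most 17.3% of barcodes thinned to 2000 UMIs held a UMI of each.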
